A study of Nicotiana tabacum with 6 samples.

Results

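WRKY transcription factors were followed in leaves of tobacco (Nicotiana tabacum), in the flue-cured line GDH64 and in MuGDH64, an aphid-resistant mutant line bred from GDH64 after cobalt gamma irradiation. Members were chosen from the text description of each gene model: the description had to name a WRKY domain and no NB-ARC domain, and the model had to reach at least 1 FPKM (fragments scaled to transcript length and to library size, the unit taken for the deposited values) in at least 3 of the 6 libraries. Of 69500 gene models in the table, 153 had a WRKY description and none of these named NB-ARC. The filter kept 102 members, among the 32340 models that passed it in all. There were 3 libraries of leaf RNA per line, and the labels name no treatment of these field-grown plants. Leaf punches of several plants were pooled per sample per the design text, and MuGDH64 is a single mutant line. The design text gives several sampling ages and seasons, and no label ties a library to an age, date or season. The 3 libraries of a line are taken as its replicates, and p-values measure only the spread between them.

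WRKY proteins are a plant family of transcription factors that bind the W-box, a short DNA element found in the promoters of many defence genes, through a domain that folds around a zinc ion. In Arabidopsis and in tobacco they act downstream of immune receptors, MAP kinase cascades and calcium signals, and many WRKY genes are themselves switched on within minutes to hours of wounding or attack. Some members activate defence genes, salicylic acid and jasmonate responses, while others repress them, and several regulate leaf senescence or trichome development. The table names domains and not genes, so no member can be given the number it has in Arabidopsis or tobacco, and the roles of single members are not known here.

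Summed over all genes the libraries held 634425 to 756316 FPKM, and the read depth is unknown. The first principal component of all tested models parted the lines and held 50.3% of the variance, with GDH64 at -30.62, -53.63 and -25.61 in libraries 1, 2 and 3. The median log2 change of all tested models was -0.18 in MuGDH64 against GDH64, so that a log2 change of a member near this value is no departure from the other genes. After quantile normalization this median was -0.0048. The tissue label was checked against leaf genes. The 63 tested chlorophyll a-b binding proteins summed to between 7349 and 8054 FPKM in GDH64 and between 6614 and 7390 FPKM in MuGDH64, and the 8 tested Rubisco small subunit models to between 6574 and 7665 FPKM and between 7448 and 7618 FPKM. MADS-box factors, which include regulators of floral organs, summed to at most 361 FPKM over 40 tested models. In bulk leaf, fewer cells of a type and less RNA per cell cannot be told apart.

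The WRKY genes spanned a wide range of levels. The mean over the 6 libraries ran from 1.05 to 190.3 FPKM with a median of 6.03 FPKM, and the 10 most abundant members made up 47.5% of the summed level. That sum was 2895, 2715 and 3269 FPKM in GDH64 libraries 1, 2 and 3 and 3082, 3048 and 2933 FPKM in the MuGDH64 libraries. The ranges overlapped, and the family took 0.385%, 0.359% and 0.449% of all FPKM in GDH64 against 0.428%, 0.432% and 0.462% in MuGDH64. By their sum, WRKY transcripts did not separate the lines.

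The most abundant members did not pass the test. Nitab4.5_0008962g0010 had 170.4, 159.7 and 197.4 FPKM in the GDH64 libraries, beside 210.1, 194.1 and 209.95 FPKM in MuGDH64, and its ranges overlapped (limma adjusted p = 0.166). Nitab4.5_0011148g0010, which also carries a Zn-cluster domain, stood at 159.6, 136.2 and 165.4 FPKM against 182.1, 182.3 and 173.1 FPKM. Its MuGDH64 values all lay above those of GDH64, by 0.22 ± 0.10 on the log2 scale (SE; adjusted p = 0.153). Nitab4.5_0000046g0020 was likewise higher without overlap, at 132.2, 129.9 and 136.2 against 155.3, 151.9 and 144.7 FPKM (adjusted p = 0.162), and it passed after quantile normalization (adjusted p = 0.036). The others among the 6 most abundant, Nitab4.5_0001159g0160, Nitab4.5_0000886g0010 and Nitab4.5_0000223g0340, had line means of 155 ± 20.4 and 159 ± 13.7, 142 ± 23.5 and 155 ± 5.11, and 135 ± 22.7 and 145 ± 2.20 FPKM (mean ± SD, n = 3 libraries, GDH64 first). All 3 overlapped between the lines (adjusted p of 0.841, 0.461 and 0.525).

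Of the 102 members, 22 passed the limma test at an adjusted p under 0.05, 9 higher and 13 lower in MuGDH64, and 80 did not pass. Among all tested models 2.2% were called higher, 9.74% lower and 11.9% in either direction, against 8.82%, 12.7% and 21.6% of the members. The lower share of the members lay near that of all genes and the higher share stood above it, and no test of the family as a list was made. After quantile normalization 12 members were called higher and 9 lower, beside 4.43% and 5.17% of all models (9.6% in either direction). After centring each library on its median, 14 were higher and 6 lower, beside 6.0% and 4.28% of all models (10.3% in either direction). The count of lower members thus depended on how the general shift between the lines was scaled. The count also depended on single libraries. Without GDH64 library 1 it was 3 higher and 4 lower, without GDH64 library 2 it was 3 and 9, and without GDH64 library 3 it was 12 and 11. Without MuGDH64 library 1 it was 3 and 9, without MuGDH64 library 2 it was 3 and 7, and without MuGDH64 library 3 it was 5 and 7. Over all models the calls became fewer in each of these fits, at 428 to 639 higher and 1354 to 2555 lower. The fit without GDH64 library 3 gave the 639 higher and 2555 lower, while the members called higher rose there from 9 to 12. Calls over all models are set here beside the fit of all 6 libraries. With all libraries the calls over all models were 712 and 3151. Each of the 22 kept its sign in all of 16 other settings in which it was tested, and 17 passed again after quantile normalization. In every setting in which they were tested, 5 passed. Of these 5, Nitab4.5_0000508g0130 and Nitab4.5_0001486g0060 passed the filter through a single line, so their difference was partly set by the choice of members.

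**Figure D1:**
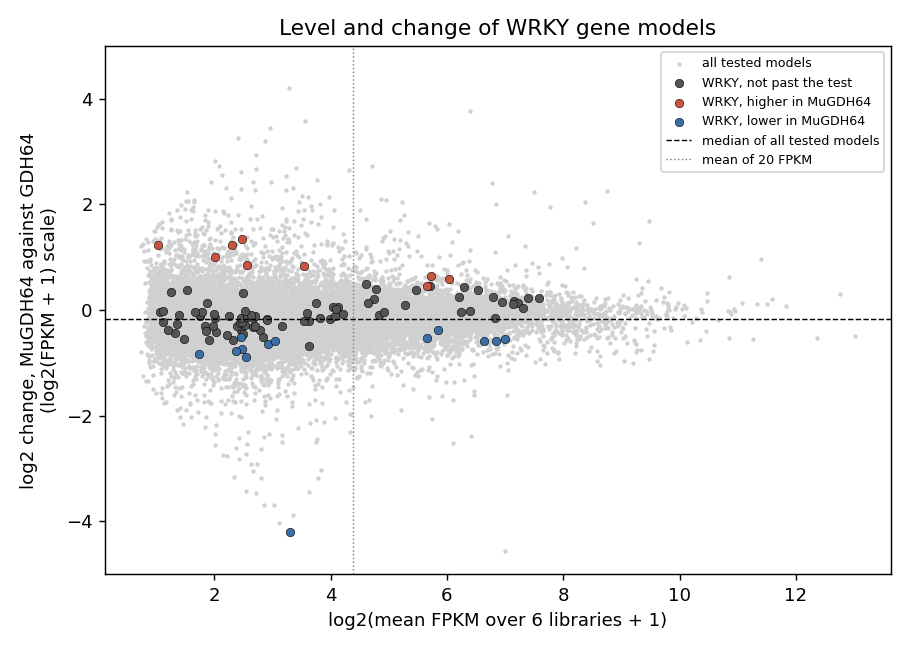
Log2 change between the lines (vertical axis, MuGDH64 against GDH64 on the log2(FPKM + 1) scale) against log2 of the mean FPKM plus 1 over 6 libraries (horizontal axis) for the 32340 tested models in grey and the 102 WRKY members in colour. The 9 members called higher and 13 called lower lie on both sides of the dashed median of all tested models at -0.18. To the right of the dotted line at 20 FPKM 83.9% of the members sit above that median, beside 61.9% of all models of that level.

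The clearest difference was a member that was listed at 0 in the mutant line. The 3 GDH64 libraries gave Nitab4.5_0000508g0130 a level of 16.57, 14.2 and 22.21 FPKM, and each MuGDH64 library listed it at 0 (adjusted p = 6.3e-06). It passed the filter through GDH64 alone, and a value of 0 in a table without counts can be a failed estimate. Among all tested models 16 were listed at 0 in all 3 MuGDH64 libraries and 12 in all 3 GDH64 libraries, and no other WRKY member was in either set. The model with the next gene number, Nitab4.5_0000508g0140, is also a WRKY gene and moved the other way, from 8.98, 4.59 and 9.04 FPKM in GDH64 to 15.76, 12.07 and 13.76 FPKM in MuGDH64. Its groups did not overlap (log2 change 0.84 ± 0.22 SE, adjusted p = 0.0434). The call held under 8 of 16 alternatives and was missed after quantile normalization (adjusted p = 0.0508). Added together, the pair of WRKY models gave 25.6, 18.8 and 31.3 FPKM in GDH64 and 15.8, 12.1 and 13.8 FPKM in MuGDH64. On the FPKM scale the rise of Nitab4.5_0000508g0140 was thus smaller than the loss of Nitab4.5_0000508g0130. FPKM is scaled to transcript length and the lengths are not known here, so these sums do not compare numbers of reads. Where copies are nearly identical, reads can be split between models, and whether that touched this pair was not tested.

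Of the other models numbered around this pair, 1 was expressed above the filter. Nitab4.5_0000508g0110, an F-box and kelch repeat protein, had 3.24, 5.16 and 3.65 FPKM in the parent and 3.58, 2.53 and 2.17 FPKM in the mutant line, with overlap (log2 change -0.41 ± 0.19 SE, adjusted p = 0.178). Nitab4.5_0000508g0120, of unknown description, was listed at 0.1 FPKM in GDH64 library 1 and at 0 in the others, and the ribonuclease H-like model Nitab4.5_0000508g0150 was at 0 throughout, so neither could show a fall. The table held 26 models under this identifier prefix. The order follows the identifiers, since no annotation of this gene set was used here.

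**Figure D2:**
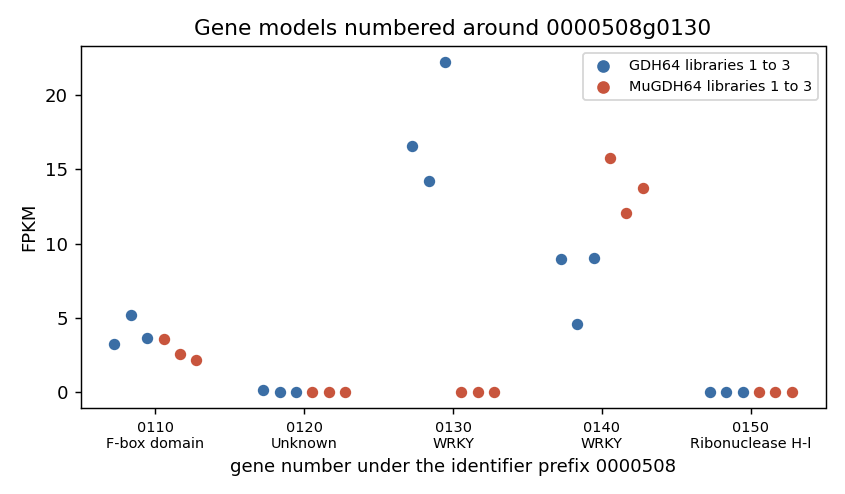
FPKM (vertical axis, linear) of the 5 gene models numbered around Nitab4.5_0000508g0130, with 1 point per library, GDH64 in blue and MuGDH64 in red. The WRKY model 0130 has 3 blue points between 14.2 and 22.21 and 3 red points at 0, while for its WRKY neighbour 0140 the red points lie above the blue ones.

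Of the 153 WRKY models 18 shared an identifier prefix with another, under 9 prefixes, and in 3 of these both models were members. In the pair Nitab4.5_0002944g0100 and Nitab4.5_0002944g0110 both had small positive log2 changes, 0.25 and 0.13, and in the pair Nitab4.5_0004506g0060 and Nitab4.5_0004506g0110 both had small negative ones, -0.20 and -0.21. None of these 4 passed the test. In both pairs the changes had 1 sign, and in the pair described above they had opposite signs.

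Apart from Nitab4.5_0000508g0130, 5 members with a mean above 20 FPKM and 7 with a lower mean fell. Of these, 3 abundant ones stood near or above 100 FPKM in GDH64. Nitab4.5_0000171g0190 fell from 138.3, 125.5 and 145.6 FPKM to 103.3, 89.06 and 81.44 FPKM, a log2 change of -0.58 ± 0.11 (SE, adjusted p = 0.0138). Nitab4.5_0002758g0040 fell from 144.3, 136.8 and 172.7 FPKM to 115.5, 100.2 and 93.8 FPKM (log2 change -0.55 ± 0.12, adjusted p = 0.0218). Nitab4.5_0003473g0040 fell from 116.3, 103.4 and 139.4 FPKM to 83.14, 77.38 and 75 FPKM (log2 change -0.59 ± 0.12, adjusted p = 0.016). In each of these the highest MuGDH64 library lay below the lowest GDH64 library. All 3 missed the threshold after median-centring and without GDH64 library 1, and they missed it in 1, 4 and 3 of the 6 fits without 1 library. The other falls at this level were those of Nitab4.5_0001084g0060, from 58.7 ± 5.26 to 40.2 ± 3.48 FPKM (mean ± SD, n = 3; adjusted p = 0.0161), and Nitab4.5_0000522g0240, from 64.1 ± 5.03 to 49.04 ± 3.59 FPKM (adjusted p = 0.042). The latter held under 4 of 16 alternatives, and not after quantile normalization (adjusted p = 0.0766).

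Among the lower members of modest level, 3 held in every setting in which they were tested. Nitab4.5_0003099g0060 fell from 3.11, 3.68 and 3.02 FPKM to 1.22, 1.52 and 1.48 FPKM (log2 change -0.83 ± 0.14 SE, adjusted p = 0.00898). Nitab4.5_0003540g0070 fell from 7.78, 9.01 and 8.06 FPKM to 4.72, 5.12 and 5.02 FPKM (log2 change -0.64 ± 0.11, adjusted p = 0.0107). Nitab4.5_0007471g0010 fell from 5.22, 6.71 and 5.89 FPKM to 3.49, 2.92 and 3 FPKM (log2 change -0.74 ± 0.13, adjusted p = 0.0112). All 3 were tight within each line and did not overlap between the lines. Nitab4.5_0001591g0020 fell from 7.2, 7.95 and 4.83 FPKM to 3.11, 3.01 and 3.08 FPKM (adjusted p = 0.0136), and missed only without GDH64 library 1 (adjusted p = 0.0504). Nitab4.5_0002680g0030, the 1 called member with a Zn-cluster domain, fell from 5.54 ± 1.27 to 2.77 ± 0.296 FPKM (mean ± SD, n = 3; adjusted p = 0.0217). This call held under 7 of 15 alternatives. Nitab4.5_0000461g0070 and Nitab4.5_0001732g0010 fell from 5.49 ± 0.520 to 3.57 ± 0.357 FPKM and from 8.98 ± 1.89 to 5.57 ± 0.370 FPKM (adjusted p of 0.0365 for both). After quantile normalization these 3 missed the threshold, with adjusted p of 0.0643, 0.101 and 0.0871.

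Among the 9 members that rose, 5 had a mean under 5 FPKM, and their relative rises were the larger ones. Nitab4.5_0001486g0060 rose from 0.31, 0 and 0.4 FPKM to 1.73, 2.05 and 1.81 FPKM (log2 change 1.22 ± 0.18 SE, adjusted p = 0.00512). It passed the filter through MuGDH64 alone, so its difference was partly set by the choice of members, and it passed in all 15 other settings in which it was tested. Nitab4.5_0025760g0010 rose from 1.58, 1.27 and 2.08 FPKM to 5.93, 3.35 and 3.89 FPKM (log2 change 1.01 ± 0.20, adjusted p = 0.0162). Nitab4.5_0007375g0020 rose from 2.06, 1.45 and 2.58 FPKM to 9.76, 3.74 and 7.76 FPKM (log2 change 1.35 ± 0.29, adjusted p = 0.0201). The MuGDH64 libraries of this last gene spread widely, with library 2 lowest, and its call was lost in 4 of the 6 fits without 1 library. Nitab4.5_0004977g0010 rose from 2.83, 0.73 and 2.59 FPKM to 7.26, 5.37 and 4.89 FPKM (log2 change 1.23 ± 0.29, adjusted p = 0.0291), and Nitab4.5_0022758g0010 from 2.95, 2.5 and 4.1 FPKM to 6.79, 8.2 and 4.87 FPKM (log2 change 0.86 ± 0.20, adjusted p = 0.0279). In all 5 of these genes GDH64 library 2 was the lowest of the 6 libraries. Without GDH64 library 2 Nitab4.5_0025760g0010, Nitab4.5_0007375g0020 and Nitab4.5_0022758g0010 missed the threshold. Nitab4.5_0004977g0010 missed it when any single MuGDH64 library was left out. Of the 6 fits without 1 library, Nitab4.5_0004977g0010 passed in 3 and Nitab4.5_0022758g0010 in 2.

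A further 3 abundant members rose. Nitab4.5_0001226g0020 rose from 49.21, 44.77 and 59.95 FPKM to 74.13, 80.1 and 78.33 FPKM (log2 change 0.60 ± 0.12 SE, adjusted p = 0.0152). Nitab4.5_0000047g0140 stood at 38.49, 32.48 and 50.93 FPKM against 60.46, 64.81 and 64.68 FPKM (log2 change 0.65 ± 0.15, adjusted p = 0.0272). Nitab4.5_0007691g0010 stood at 43.48, 37.51 and 43.65 FPKM against 64.16, 58.17 and 49.45 FPKM (log2 change 0.45 ± 0.12, adjusted p = 0.043). In each the lowest MuGDH64 library lay above the highest GDH64 library. Of 16 alternatives Nitab4.5_0001226g0020 passed in 14, Nitab4.5_0000047g0140 in 10 and Nitab4.5_0007691g0010 in 8, and all 3 passed after quantile normalization. Of the 6 fits without 1 library they passed in 4, 1 and 1.

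**Figure D3:**
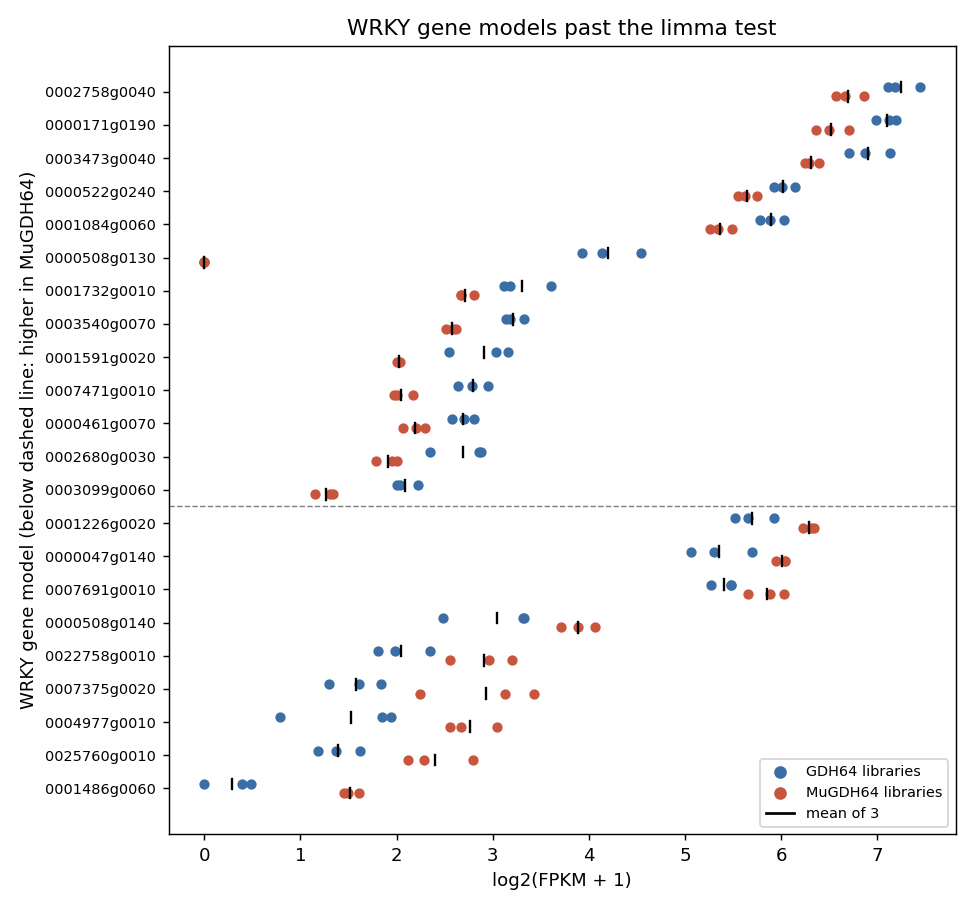
Log2(FPKM + 1) in each library (horizontal axis, 1 point per library, GDH64 in blue, MuGDH64 in red, black bars for the mean of 3) of the 22 WRKY members past the limma test (vertical axis, identifiers without their common start). The 13 members above the dashed line were lower and the 9 below it were higher in MuGDH64, and in each of the 22 the libraries of the lines did not overlap.

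The 3 members with the largest changes among those that missed the threshold were all lower in MuGDH64. Nitab4.5_0000437g0130 had 12.42, 16.16 and 13.73 FPKM in the parent against 8.94, 11.54 and 5.57 FPKM (log2 change -0.68 ± 0.22 SE, adjusted p = 0.0752). Nitab4.5_0000720g0050 stood at 4.16, 6.49 and 4.37 FPKM against 2.89, 3.2 and 2.85 FPKM (adjusted p = 0.0544), and Nitab4.5_0000222g0080 at 3.55, 4.53 and 2.52 FPKM against 2.09, 2.14 and 1.79 FPKM (adjusted p = 0.072). None of the 3 overlapped between the lines. Over the whole family the lines did not overlap for 19 members that were higher and 27 that were lower in MuGDH64, that is 18.6% and 26.5%, beside 5.68% and 31.8% of all tested models (37.5% in either direction). After quantile normalization these counts were 23 and 17, beside 15.4% and 16.5% of all models.

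By domain make-up, 85 of the 102 members had a WRKY domain alone, 13 also had a Zn-cluster domain, 2 a protein kinase domain and 2 an AP2/ERF and a glycoside hydrolase domain. The Zn-cluster marks the class of WRKY proteins that bind calmodulin in Arabidopsis. Of these 13 models 1 fell, none rose and 12 did not pass, and their median log2 change was -0.10 beside -0.09 for the 85 with a WRKY domain alone, of which 9 rose and 12 fell (2.2% and 9.74% of all models). After quantile normalization and after median-centring 1 Zn-cluster model was higher and none lower. That model, Nitab4.5_0004730g0010, had 24.0 ± 0.510 FPKM in GDH64 and 27.8 ± 0.903 FPKM in MuGDH64 (mean ± SD, n = 3; limma adjusted p = 0.152 as deposited and 0.0329 after quantile normalization). The Zn-cluster models summed to 516, 463 and 531 FPKM in GDH64 and to 536, 551 and 491 FPKM in MuGDH64, with overlap. The 4 models with a kinase or an AP2/ERF domain had negative log2 changes, from -0.43 in Nitab4.5_0000568g0260 to -0.20 in Nitab4.5_0004506g0060, and none passed.

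The abundant members differed from the others in direction, here with level boundaries that were chosen after the values had been seen and with no test. The 31 members with a mean of at least 20 FPKM had a median log2 change of 0.15, and 67.7% had a positive change. The 6376 tested models of the same level had a median of -0.10, with 34.7% positive. Among these 31 members 3 rose and 5 fell, against 3.2% and 13.7% of the models of that level. The split turned with the scaling: it was 6 higher and 4 lower after quantile normalization (6.99% and 10.3% of models) and 7 higher and 1 lower after median-centring (13.3% and 6.78%). The 26 members between 5 and 20 FPKM had a median of -0.16 beside -0.18 for the models of that level, with 1 higher and 3 lower (1.87% and 11.1% of models). The 45 members under 5 FPKM had a median of -0.22 beside -0.20, with 5 higher and 5 lower (2.04% and 6.57% of models). The distance of the abundant members from models of like level was 0.24 as deposited and after quantile normalization, and 0.20 to 0.36 in the fits without 1 library. Most of these abundant members did not pass singly.

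The abundant members also varied together among the GDH64 libraries. Of the 31, 28 were highest in GDH64 library 3 of the 3 GDH64 libraries and 24 were lowest in library 2, and 24 followed the full order of library 3 above 1 above 2. Among all models of that level 24.5% were highest in library 3, 31.7% lowest in library 2, and 18.0% followed that order. The median log2 difference between GDH64 libraries 3 and 2 was 0.36 for these members and -0.07 for the models of that level. Their median change between the lines, 0.15, was 0.25 without GDH64 library 3 or after quantile normalization, and 0.27 after rescaling to equal sums. The median SD within a line was 0.211 on the log2 scale in GDH64 and 0.121 in MuGDH64, beside 0.118 and 0.128 for the models of that level. In the MuGDH64 libraries 13, 10 and 8 of the 31 members were highest in libraries 1, 2 and 3 (41.9%, 32.3% and 25.8%). The models of that level were highest there in 57.4%, 36.2% and 6.41% of cases. MuGDH64 library 3 was the lowest for 18 of the 31 members (58.1%), beside 78.3% of those models. Over all levels, the order of library 3 above 1 above 2 was followed by 44.1% of the 102 WRKY members. Among the other lists, also taken over all levels, it was followed by 44% of 25 TIFY and JAZ genes, which hold jasmonate repressors. It was followed by 36% of 25 chitinases. It was followed by 30.4% of 69 small heat shock proteins, 28.7% of 178 AP2/ERF factors, 14.1% of 177 NB-ARC receptors and 6.35% of 63 light harvesting proteins, beside 11.7% of all tested models. No label names a batch, a time of day or a handling step, and their part in this order was not tested.

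**Figure D4:**
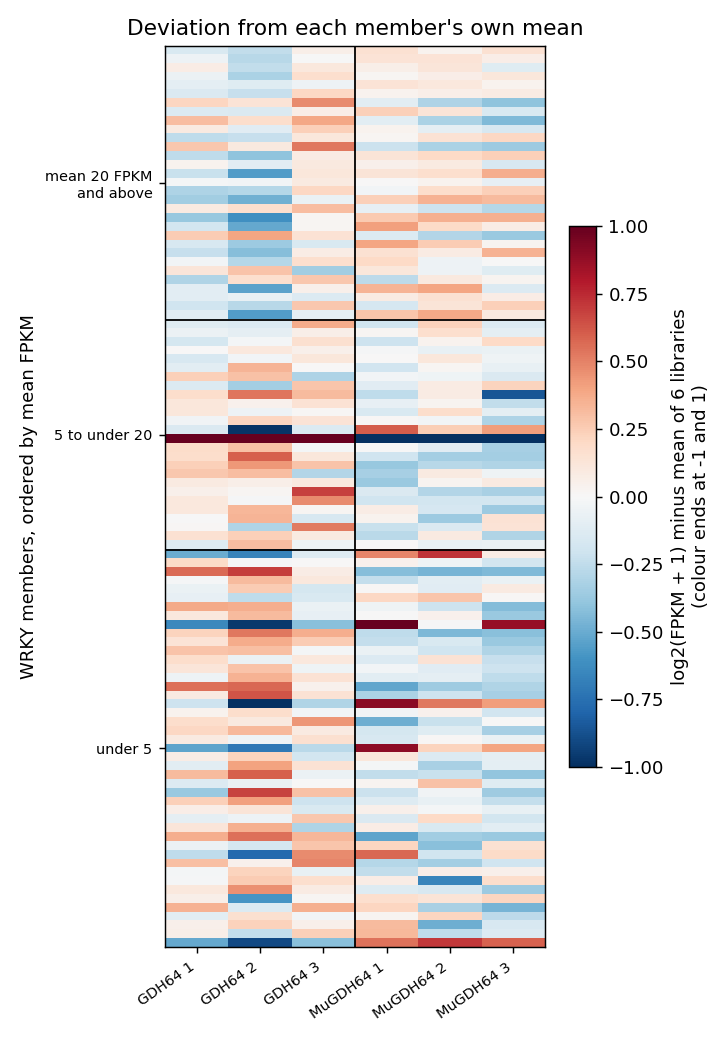
Log2(FPKM + 1) of each WRKY member minus its mean over the 6 libraries (colour, ending at -1 and 1), with members as rows ordered by mean FPKM and libraries as columns. In the top block of 31 members with a mean of at least 20 FPKM, GDH64 library 2 is mostly blue and library 3 mostly pale red, and in the rows below the GDH64 columns are mostly red and the MuGDH64 columns mostly blue.

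The member listed at 0 in MuGDH64 weighed heavily on the separation of the libraries over the family. With all 102 members the first principal component held 76% of their variance, with GDH64 libraries at -2.7, -3.99 and -2.44 and MuGDH64 libraries at 3.2, 2.77 and 3.16. Without Nitab4.5_0000508g0130 it held 68.7%, with GDH64 libraries at -1.79, -3.84 and -0.92 and MuGDH64 libraries at 2.42, 1.79 and 2.34. The lines stayed apart on it, and GDH64 library 3 lay nearest to the MuGDH64 libraries. The second component, with 12.3% of the variance of these 101 members, set GDH64 libraries 2 and 3 apart at -1.09 and 2.09. Across the 101 members, genes that cannot count as independent points, Pearson's r was 0.977 to 0.993 between libraries of a line and 0.943 to 0.981 between libraries of different lines, and these ranges overlapped.

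Genes known from other plants to act with WRKY factors were read beside them, from lists written with earlier results of these data known and holding no WRKY model. Of all tested models 2.2% were called higher and 9.74% lower. VQ proteins, small partners that bind WRKY domains, had 2 higher and 4 lower of 36 tested, and the pair that rose were abundant. Nitab4.5_0005808g0010 rose from 47.7 ± 3.96 to 78.2 ± 11.2 FPKM (mean ± SD, n = 3; adjusted p = 0.00974) and Nitab4.5_0003481g0110 from 37.8 ± 3.33 to 58.9 ± 5.71 FPKM (adjusted p = 0.0103). In the MAP kinase list, which holds the kinases that phosphorylate some WRKY factors, none of 22 rose and 5 fell, among them Nitab4.5_0001702g0110 from 9.24 ± 0.386 to 5.38 ± 0.663 FPKM. Of 74 calcium-dependent kinase and calmodulin models, a list that shares the calmodulin-binding proteins named next, 2 rose and 8 fell. Those shares, 2.7% and 10.8%, lay close to the shares of all models. Of 20 calmodulin-binding proteins of the type that regulates salicylic acid synthesis in Arabidopsis, 2 rose and 1 fell, and Nitab4.5_0000208g0370 rose from 1.01 ± 0.293 to 3.23 ± 0.588 FPKM (adjusted p = 0.00781). The medians of these 4 lists were -0.17, -0.21, -0.24 and -0.25, near the -0.18 of all tested models. After quantile normalization 4.43% of all models were called higher and 5.17% lower. In that fit 4 VQ models were higher and 2 lower, and 2 MAP kinase models were lower. There 7 calcium-dependent kinase and calmodulin models were higher and 4 lower, and 5 calmodulin-binding models were higher and 1 lower. The split between higher and lower calls thus depended on the scaling.

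Salicylic acid and jasmonate components are read beside the 2.2% of all models called higher and 9.74% called lower. Of 8 NPR1-like models, the family of salicylic acid receptors, 4 fell and none rose, with Nitab4.5_0002574g0030 at 12.4 ± 1.15 against 8.11 ± 0.938 FPKM (adjusted p = 0.0235). After quantile normalization 1 of the 8 was lower. Of 9 isochorismate synthase and phenylalanine ammonia-lyase models 1 rose and 2 fell. The ammonia-lyase Nitab4.5_0012382g0010, of the first step of phenylpropanoid synthesis, fell from 5.8 ± 0.415 to 1.96 ± 0.657 FPKM (adjusted p = 0.00444). Of 25 TIFY and JAZ models 3 fell and none rose, with Nitab4.5_0000238g0080 lower at 47.1 ± 3.40 against 73.5 ± 4.34 FPKM (adjusted p = 0.0058). The NB-ARC receptors, intracellular sensors upstream of WRKY factors, had 4 higher and 16 lower of 177, close to the shares of all genes, and 1 of 5 RPW8-type models rose, Nitab4.5_0024858g0010 from 6.28 ± 0.702 to 13.8 ± 2.97 FPKM. Among 27 senescence genes 1 rose and 7 fell, with the S40-type regulator Nitab4.5_0000389g0020 lower at 25.4 ± 4.37 against 43.4 ± 1.82 FPKM (adjusted p = 0.00858). With quantile normalization 4.43% of all models were called higher and 5.17% lower. The higher and lower calls were then 2 and 2 for salicylic acid supply and 0 and 2 for TIFY and JAZ. They were 5 and 7 for NB-ARC receptors and 2 and 6 for senescence.

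Pathogenesis-related families include textbook targets of WRKY factors, and their counts are likewise read beside 2.2% higher and 9.74% lower of all models. Of 25 chitinases 7 rose and 1 fell, and their summed level was 905, 877 and 947 FPKM in GDH64 and 2211, 1817 and 1592 FPKM in MuGDH64. Much of this came from Nitab4.5_0001581g0010, a family 19 chitinase, which rose from 366 ± 33.9 to 893 ± 157 FPKM (adjusted p = 0.00108), and Nitab4.5_0003207g0080, which rose from 128 ± 6.68 to 537 ± 107 FPKM (adjusted p = 1e-04). Of 18 thaumatin-like proteins 4 rose and 3 fell, with Nitab4.5_0000360g0100 from 62.1 ± 6.60 to 298 ± 56.6 FPKM (adjusted p = 7e-05). Of 50 glucanases of family 17, which include the defence enzymes that cut callose-type glucans, 7 rose and 5 fell, and Nitab4.5_0008527g0010 rose from 31.1 ± 3.16 to 98.6 ± 14.8 FPKM. Of 13 PR-1-type proteins 2 rose and 1 fell, with Nitab4.5_0004861g0030 from 240.0 ± 43.8 to 417 ± 60.4 FPKM (adjusted p = 0.0138). The Bet v I family had 4 higher and 4 lower of 22. With quantile normalization 4.43% of all models were called higher and 5.17% lower. The higher and lower calls were then 9 and 1 for chitinases and 4 and 3 for thaumatin-like proteins. They were 8 and 2 for glucanases, 3 and 0 for PR-1 and 4 and 3 for Bet v I. No relation between single WRKY genes and these genes was tested.

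**Figure D5:**
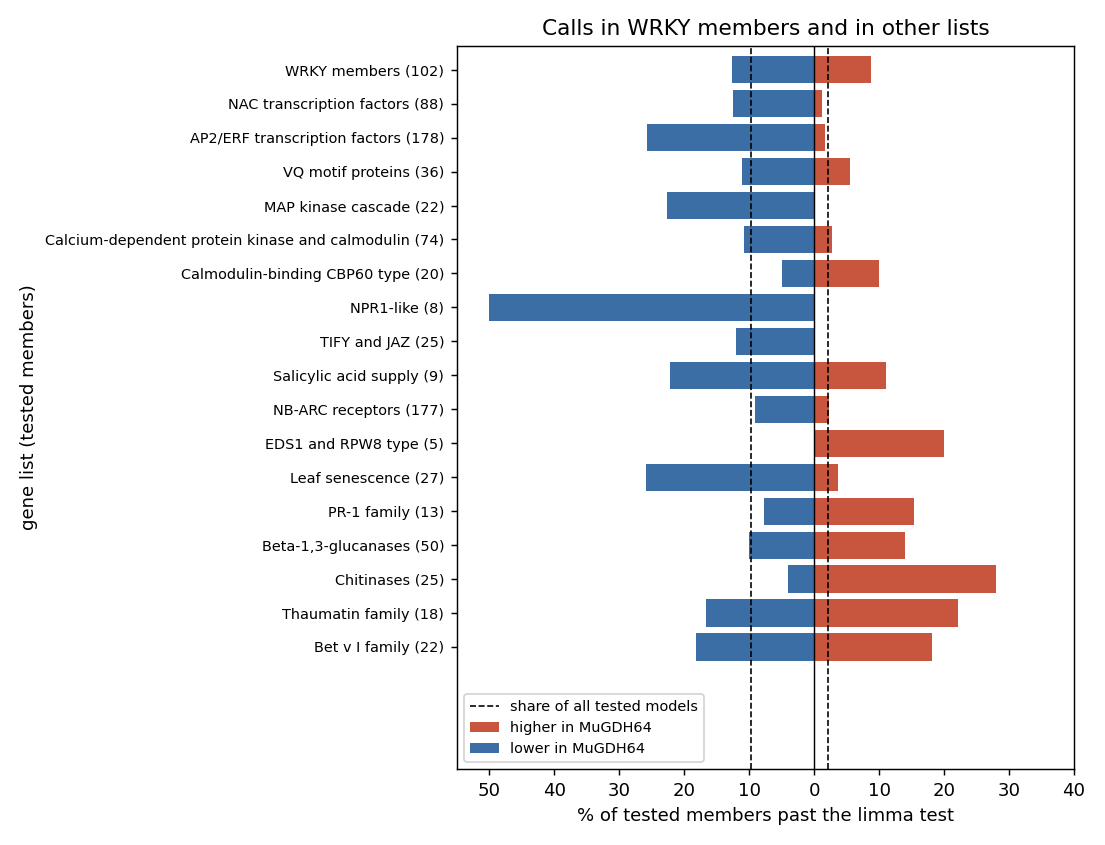
Percentage of tested members called higher (red, to the right) or lower (blue, to the left) in MuGDH64 by limma for the WRKY members and the lists read beside them, with the number tested in brackets and dashed lines at the 2.2% and 9.74% of all tested models. WRKY members reach 8.82% and 12.7%, chitinases stand furthest to the right and NPR1-like models, of which there are 8, furthest to the left.

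Other large families of stress-related transcription factors gave other splits. Of 88 NAC factors 1 was called higher and 11 lower (1.14% and 12.5%), near the 2.2% and 9.74% of all models. Of 178 AP2/ERF factors 3 were called higher and 46 lower (1.69% and 25.8%). With quantile normalization the NAC and AP2/ERF splits were 2 and 8 and 3 and 33, beside 4.43% and 5.17% of all models. The median log2 changes of NAC and AP2/ERF factors were -0.09 and -0.31, beside -0.11 for the WRKY members. NAC factors were highest in GDH64 library 3 in 34.1% and AP2/ERF factors in 37.1% of cases. The share was 52% for all WRKY members and 21.2% for all tested models. It was 52.0% for TIFY and JAZ models and 60.0% for chitinases, so it was not particular to WRKY members, and the other lists lay below 52%. The difference between the families was not tested.

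Of the 51 WRKY models under the filter, 13 were listed at 0 in every library, and 48 were below 1 FPKM in all 6. The highest single value was 3.63 FPKM. At the edge of the filter, 3 members reached 1 FPKM in exactly 3 libraries: Nitab4.5_0000508g0130 and Nitab4.5_0001486g0060, described above, and Nitab4.5_0007411g0020, at 1.16, 0.76 and 1.45 FPKM in GDH64 and 1.59, 0.74 and 0.89 FPKM in MuGDH64. Just outside it, 1 model reached 1 FPKM in 2 libraries and 2 models in 1 library. One of the latter, Nitab4.5_0000039g0050, was listed at 3.16 FPKM in MuGDH64 library 1 and at 0 in the others.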

How the data were processed

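The authors deposited 1 table of 69500 tobacco gene models with a value per library for 3 GDH64 and 3 MuGDH64 leaf libraries. The values carry no unit in the file header. They were taken as FPKM by inference, since the submitters' processing notes name TopHat2 and Cufflinks (no versions given), and the genome build is not given in the sources used here. No counts were used, so read depth is unknown and no counting interval is given. FPKM divides by library totals, so a change in a few abundant genes shifts the others, and in a tetraploid near-identical gene copies can share or split reads.

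The 32340 models that reached 1 FPKM in 3 or more of the 6 libraries were tested as log2(FPKM + 1) with limma 3.58.1 (trend, two-sided) in R 4.3.3, MuGDH64 against GDH64, with Benjamini-Hochberg adjustment over all of them and a threshold of 0.05. Log2 changes understate those of low genes. With 3 libraries against 3 an exact permutation test of a single gene cannot go below p = 0.1, so none is given. The code was tested on simulated data first. Lists are described by counts and medians, with no test of a list.

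Text names members past the test (up to 12 of the largest changes in each direction), those listed at 0 in a line with the models numbered beside them, the 6 most abundant, the 3 largest changes that missed the threshold, and up to 2 models per list with the smallest adjusted p. Nitab4.5_0000522g0240, the smallest of the 13 falls, the models with extra domains, those sharing a prefix and those near the filter were added after their values were seen. Principal components and correlations without the member listed at 0 were likewise added after seeing the data. The members and lists were chosen with earlier results of these data known. None of the identifiers matched the RefSeq table, so gene names and sequences are not used here.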

Additional observations from a re-analysis of the deposited data

How the results depend on the processing

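Scaling, filter and single libraries moved the counts. Members called higher numbered 9, and 14 after median-centring, 14 after rescaling to equal sums, 2 without a filter, 5 with a filter of 5 FPKM (fewer members tested) and 3 to 12 with 1 library left out. Those called lower numbered 13, and 6 after median-centring, 8 without a filter, 18 with library weights and 4 to 11 with 1 library left out. Over all models, 712 were higher, and 1433 after quantile normalization, 1940 after median-centring, 1285 after rescaling, 1266 with library weights and 428 to 639 with 1 library left out. The 3151 lower became 1671 after quantile normalization, 1384 after median-centring, 1784 without a filter, 5018 with library weights and 1354 to 2555 with 1 library left out. Members whose lines did not overlap numbered 46, or 45.1%, beside 37.5% of all tested models. With a filter of 5 FPKM, which tests fewer members, they numbered 26. Leaving out 1 library can only keep or raise this count, so its 50 to 66 does not measure how stable the count is. The median member change of -0.11 became 0.0706 after quantile normalization, 0.0905 after median-centring, -0.0127 after rescaling and -0.0437 with the 5 FPKM filter. Its distance from all models, 0.0657, became 0.0026 without a filter and 0.1154 with the 5 FPKM filter, and ran from 0.0351 to 0.0928 with 1 library left out. The median of the abundant members, 0.1468, became 0.3478 after median-centring, 0.2515 after quantile normalization, 0.2673 after rescaling, 0.1094 to 0.2472 with 1 library left out (highest without GDH64 library 3), and 0.0808 and 0.1468 with boundaries of 10 and 50 FPKM, all of these boundaries chosen after seeing the data. Nitab4.5_0001159g0160 (log2 change 0.04, not called) turned to -0.0741 without GDH64 library 2 and -0.0108 without MuGDH64 library 2, within a range that reached 0.1097. No label ties a library to a block or date. Deviations of same-numbered libraries of the lines correlated at 0.0148, 0.0131 and 0.0511, and those of differently numbered ones at -0.0459 to 0.0281. Whether same-numbered libraries share a block or date was not tested. With the number as a replicate block 8 members were higher and 12 lower. Beyond the scaling and filter themselves, the cause was not tested.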
